A study of Mus musculus with 4 samples.

Results

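Olfr456 is an olfactory receptor gene, and Tcrg-C4 is a constant-region gene of the T cell receptor gamma locus. In AML12 mouse hepatocytes, both were among the genes whose RNA level was most reduced in 3D culture relative to 2D culture. Rows of the gene table named Olfr456 or with a name starting in Tcrg-C were taken, which gave 4 genes of the 31828 listed, namely Olfr456, Tcrg-C1, Tcrg-C2 and Tcrg-C4. Olfr456 and Tcrg-C4 had been chosen by their TPM in 3D against 2D, so their differences are given as a description with no test. AML12 is a line of non-tumorigenic hepatocytes from a mouse transgenic for human TGF-alpha, and both cultures are of this line. For the 2D group, cells were replated in 10 cm dishes and kept in 1 mM hydroxyurea, which halts DNA synthesis, for 24 h. For the 3D group, cells were embedded in Matrigel, a basement membrane extract, and kept in 1 mM hydroxyurea for 36 h. All cells shared a medium with serum, insulin, transferrin, selenite and dexamethasone. Culture form and hours in hydroxyurea changed together and cannot be told apart. Each group has 2 RNA-seq libraries. The labels do not say whether these came from separate cultures, so p-values measure the spread between libraries, which may be technical.

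Values are TPM, a transcript level scaled for transcript length and for the library total. TPM keep no read number, so the depth behind each value is unknown and no interval or detection limit was computed. Genes with a mean of at least 1 TPM over the 4 libraries were tested with limma on log2(TPM + 1), which took in 14116 genes. The log2 differences given here are 3D minus 2D on that scale, which understates the change of low genes. The number of genes of at least 1 TPM ran from 13891 to 14256 per library.

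Olfactory receptors are G protein-coupled receptors that bind odorants, and in the nose each mature sensory neuron expresses a single receptor gene of the large family. Their genes lie in clusters and most have their coding sequence in 1 exon. The T cell receptor gamma chain pairs with the delta chain on gamma-delta T cells. In the mouse its locus is a row of cassettes, each with variable, joining and constant genes, and recombination in developing T cells brings a variable gene next to a joining gene. Cultured hepatocytes are not a usual site of either product.

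Olfr456 (ENSMUSG00000090631) lies at chr6:42486163-42487214 of GRCm38 on the minus strand, as 1 protein-coding exon of 1052 bases. Tcrg-C4 (ENSMUSG00000076757) lies at chr13:19344558-19352756 on the plus strand, with 4 exons of 330, 54, 45 and 556 bases. Tcrg-C1 (ENSMUSG00000076749) lies at chr13:19214103-19217024 on the plus strand and Tcrg-C2 (ENSMUSG00000076752) at chr13:19304649-19307551 on the minus strand. No other annotated gene overlaps any of the 4. The annotation used here, GENCODE M21, also holds Tcrg-C3, whose expression was not analysed here and whose sequence is used below.

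The constant genes are related in sequence, so how far reads could tell them apart depends on where they differ. The first 90 bases of the first constant exon are shown for the 4 genes of GENCODE M21, 5′ to 3′ along the transcript, with capitals where a base differs from Tcrg-C4. The stretches lie at chr13:19344558-19344647 for Tcrg-C4, chr13:19214103-19214192 for Tcrg-C1, chr13:19307462-19307551 for Tcrg-C2 on the minus strand and chr13:19260885-19260974 for Tcrg-C3.
Tcrg-C4: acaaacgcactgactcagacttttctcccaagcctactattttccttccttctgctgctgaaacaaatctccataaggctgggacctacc
Tcrg-C1: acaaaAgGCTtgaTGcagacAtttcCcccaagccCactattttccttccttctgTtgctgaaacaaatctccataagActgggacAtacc
Tcrg-C2: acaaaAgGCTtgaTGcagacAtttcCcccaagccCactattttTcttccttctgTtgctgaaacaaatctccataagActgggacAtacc
Tcrg-C3: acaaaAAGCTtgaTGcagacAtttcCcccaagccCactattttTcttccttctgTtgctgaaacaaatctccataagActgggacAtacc
Over the 330 bases of that exon, Tcrg-C4 was 82.1% identical to Tcrg-C1, 81.5% to Tcrg-C2 and 81.2% to Tcrg-C3. Tcrg-C1 and Tcrg-C2 were 97.3% identical to each other. Of the 956 runs of 30 bases in the Tcrg-C4 transcript, 0 occur in another annotated gene. In Tcrg-C1 and Tcrg-C2, 52.1% and 47.2% of such runs do, each time in another Tcrg-C gene. Tcrg-C4 can therefore be told from its relatives by any such run, while reads of Tcrg-C1 and Tcrg-C2 could be split between copies.

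Olfr456 has closer copies beside it. Its first 90 coding bases, at chr6:42487102-42487191 on the minus strand, are shown with the matching stretches of Olfr457, at chr6:42472084-42472173, and Olfr458, at chr6:42460925-42461014, on the same strand and with capitals where a base differs from Olfr456. Both copies were singled out after their values were seen.
Olfr456: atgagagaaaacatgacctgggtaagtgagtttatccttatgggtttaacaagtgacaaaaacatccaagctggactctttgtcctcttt
Olfr457: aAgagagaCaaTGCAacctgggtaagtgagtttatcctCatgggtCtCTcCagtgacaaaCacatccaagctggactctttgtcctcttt
Olfr458: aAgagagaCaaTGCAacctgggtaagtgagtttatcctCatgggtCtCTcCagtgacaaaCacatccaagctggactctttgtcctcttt
Each copy differs from Olfr456 at 12 of these 90 bases. Whole transcripts aligned with blastn were 94.8% identical over 1000 bases to Olfr457 and 92.8% over 974 bases to Olfr458. Of the 1023 runs of 30 bases in Olfr456, 41.4% also occur in another gene, namely Olfr457, Olfr458 or Olfr1411. Those runs are shorter than the reads, and reads that lie wholly in shared sequence could have been assigned to a copy or the reverse, so the level of Olfr456 is uncertain to that extent.

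Olfr456 was among the moderately expressed genes in 2D and was under 1 TPM in 3D. Its level was 46.4 and 50.2 TPM in 2D culture, against 0.722 and 0.930 TPM in 3D culture. The groups lie far apart, with means of 48.3 ± 2.64 TPM (SD, n = 2) in 2D and 0.826 ± 0.147 TPM (SD, n = 2) in 3D. The mean TPM was 58.5-fold higher in 2D, and the log2 difference was -4.76. In RNA of whole cultures, fewer expressing cells and less RNA per cell cannot be told apart. Among the 31828 genes of the table, Olfr456 ranked 4228 and 4038 by TPM in 2D and 14659 and 14077 in 3D. Among the 14116 tested genes, 1 had a lower log2 difference.

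Tcrg-C4 was higher than Olfr456 in every library and kept a measurable level in 3D. It stood at 83.6 and 81.1 TPM in 2D and at 7.38 and 8.25 TPM in 3D. Both 2D libraries lie above both 3D libraries, with means of 82.3 ± 1.75 TPM (SD, n = 2) and 7.81 ± 0.617 TPM (SD, n = 2). The mean TPM was 10.5-fold higher in 2D, and the log2 difference was -3.24. Its rank by TPM was 2422 and 2552 in 2D and 10052 and 9802 in 3D, and 7 tested genes had a lower log2 difference.

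The other constant genes were near 0 in both cultures. Tcrg-C1 was listed at 0 in both 2D libraries, and at 0 and 0.0673 TPM in the 3D libraries. Tcrg-C2 stood at 0.234 and 0.164 TPM in 2D and at 0.266 and 0 TPM in 3D. Their groups overlap and their means lie under 1 TPM, so neither was among the tested genes. Of the 4 genes, 2 passed the filter of 1 TPM. Olfr456 passed only through its 2D libraries, whereas Tcrg-C4 was above 1 TPM in every library. Both 3D libraries lay below both 2D libraries for those 2, as for 41.6% of all tested genes. Tcrg-C1 and Tcrg-C2 were too low to show a fall such as that of Tcrg-C4, so whether the difference is particular to Tcrg-C4 was not tested.

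**Figure D1:**
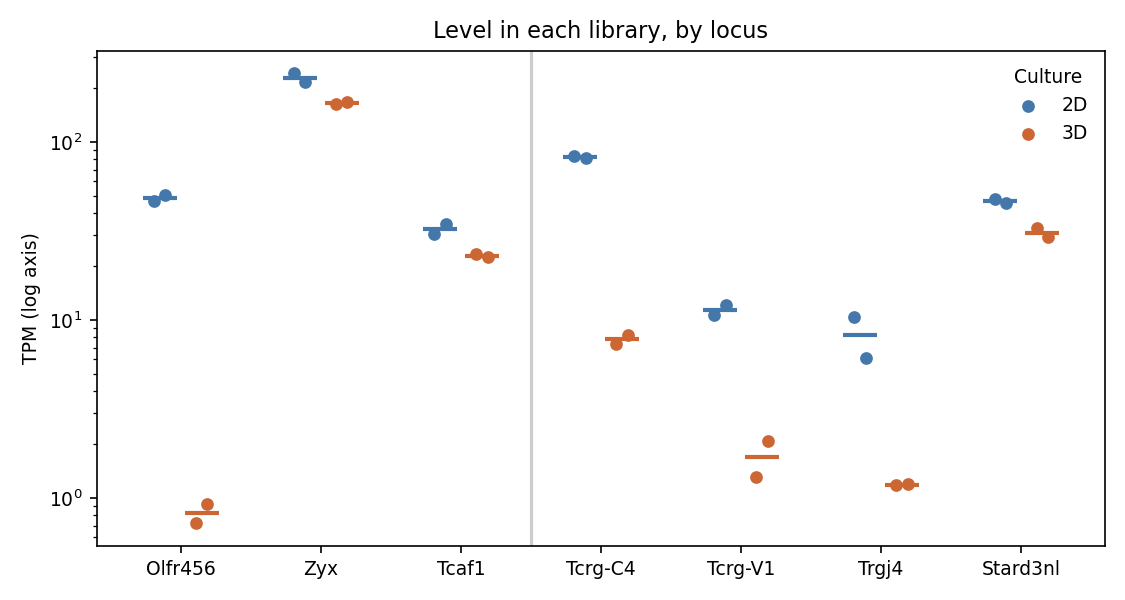
TPM on a log axis in each library (points, 2 per culture) with the mean of each culture (bar), for Olfr456 and the tested genes within 200 kb of it (left of the line) and for Tcrg-C4 and the tested genes of its window (right). Olfr456 stands at 46.4 and 50.2 TPM in 2D and under 1 TPM in 3D, and Tcrg-C4, Tcrg-V1 and Trgj4 are each separated by culture by a wider gap than Stard3nl, Zyx or Tcaf1.

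Around Tcrg-C4, the difference extended over its own cassette. Within 200 kb of a Tcrg-C gene lie 9 other genes that the table lists, and 3 of these were tested. All 3 fell in 3D, against 27.1% of the 14116 tested genes that fell and 23.4% that rose in the same limma fit. The 2 with the larger differences are the variable gene Tcrg-V1 and the joining gene Trgj4, which lie upstream of Tcrg-C4 on its own strand. Whether these 2 share a transcript with Tcrg-C4 was not tested, so they may not count as separate neighbours. The median log2 difference was -2.03 over the 3 tested genes and -0.10 over all 9 genes of the window, most of which are near 0 TPM, beside -0.04 over all tested genes.

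Tcrg-V1, at chr13:19339989-19340454, encodes a variable region. Its level was 10.7 and 12.1 TPM in 2D and 1.31 and 2.10 TPM in 3D, a 6.68-fold higher mean in 2D. It fell by 2.21 on the log2 scale (SE 0.17, limma adjusted p = 0.00113). The groups do not overlap, and the 2 libraries of 3D differ more, in proportion, than those of 2D. In Tcrg-V1, 45.5% of the runs of 30 bases also occur in Trgv2 or Tcrg-V3, so its reads could be shared with these.

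Trgj4, at chr13:19342152-19342212, is the joining gene that lies between them, and it is a short feature of 61 bases, shown whole on the plus strand because none of its 32 runs of 30 bases occurs in another gene.
Trgj4: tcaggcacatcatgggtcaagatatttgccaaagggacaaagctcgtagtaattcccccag
Its level was 10.3 and 6.08 TPM in 2D and 1.18 and 1.20 TPM in 3D, a 6.91-fold higher mean in 2D. It fell by 2.03 on the log2 scale (SE 0.24, limma adjusted p = 0.00334). The 2D libraries of Trgj4 were more spread than those of any other gene of the cassette. The reads, by the study's methods paired, are longer than this feature, and its TPM depend strongly on how reads that reach past its ends were counted.

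The cassette is compact. A gap of 1.70 kb separates Tcrg-V1 from Trgj4, and 2.35 kb separates Trgj4 from Tcrg-C4. Relative to Tcrg-C4, the TPM of Tcrg-V1 were 0.128 and 0.149 in 2D and 0.178 and 0.255 in 3D. Those of Trgj4 were 0.124 and 0.0750 in 2D and 0.159 and 0.146 in 3D. Within each library both were thus well below the constant gene, and both ratios were somewhat higher in 3D.

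On the far side of Tcrg-C4 lies Stard3nl, a gene for an endosomal membrane protein that binds cholesterol, after a gap of 4.92 kb and on the opposite strand. Stard3nl stood at 47.9 and 45.2 TPM in 2D and at 32.7 and 29.3 TPM in 3D, with both 2D libraries above both 3D libraries. It fell by 0.57 on the log2 scale (SE 0.08, limma adjusted p = 0.00456). Its ratio to Tcrg-C4 went from 0.573 and 0.557 in 2D to 4.44 and 3.55 in 3D, so the neighbour was below Tcrg-C4 in 2D and above it in 3D. The 6 remaining genes of the window had means under 1 TPM, with at most 0.199 TPM in any library. The nearest Tcrg-C gene of the table, Tcrg-C2, is 37.0 kb away and Tcrg-C1 is 127.5 kb away, both near 0 as described.

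Around Olfr456 no gene of the table had a log2 difference of comparable size, but most were too low to show such a fall. The table holds 14 other genes within 200 kb, and 12 of them had means under 1 TPM, with at most 1.66 TPM in any library. The closest is Olfr457, after a gap of 9.83 kb, with 0.0909 and 0.0307 TPM in 2D and 0 and 0.0271 TPM in 3D. Olfr458, the next beyond it, had 0.0626 and 0.195 TPM in 2D and 0.0644 and 0.0532 TPM in 3D. The near-identical copies were thus close to 0 in every library, and adding their TPM to Olfr456 would alter its level little. The median log2 difference was -0.04 over the 14 genes and -0.47 over the 2 tested ones.

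The 2 tested genes of the window are distant, and both fell in 3D, against the 27.1% of tested genes given above. Zyx, which encodes zyxin, a focal adhesion protein, is 126.0 kb from Olfr456. Its level was 243 and 217 TPM in 2D and 163 and 167 TPM in 3D, a fall of 0.47 on the log2 scale (SE 0.07, limma adjusted p = 0.00497). Tcaf1, which encodes a factor associated with a TRP channel, is 180.8 kb away on the other side. Tcaf1 had 30.2 and 34.4 TPM in 2D and 23.4 and 22.5 TPM in 3D, and it also fell by 0.47 (SE 0.08, limma adjusted p = 0.00998). Without 3D replicate 2 the adjusted p of Tcaf1 was 0.0529. The mean TPM were 1.39-fold higher in 2D for Zyx and 1.41-fold higher for Tcaf1, against 58.5-fold for Olfr456.

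**Figure D2:**
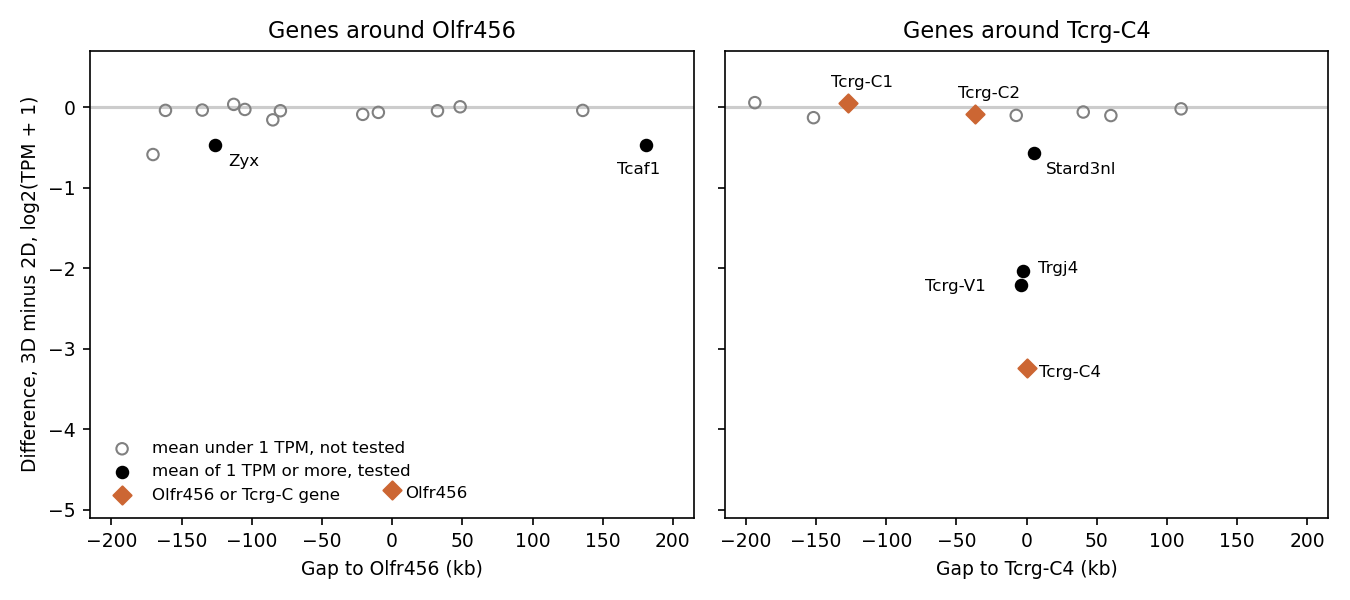
Log2 difference, 3D minus 2D, on log2(TPM + 1), of genes against the gap in kb to Olfr456 (left) or Tcrg-C4 (right), with negative gaps at lower coordinates. Filled points were tested, and diamonds are Olfr456 and the Tcrg-C genes. Open points have a mean under 1 TPM, too low for a fall such as that of Olfr456. Olfr456 at -4.76 has no neighbour below -0.59, whereas Tcrg-V1 at -2.21 and Trgj4 at -2.03 lie beside Tcrg-C4 at -3.24.

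The window before the start of Olfr456 is shown from RefSeq (GRCm38.p6, chr6:42487165-42487464, minus strand). Whether this sequence has a part in the difference of Olfr456 was not tested. It runs from 250 bases before the annotated start to 50 bases after it, which are in capitals. The start codon already lies in those 50 bases, and whether transcription begins at the annotated start was not tested.
Olfr456: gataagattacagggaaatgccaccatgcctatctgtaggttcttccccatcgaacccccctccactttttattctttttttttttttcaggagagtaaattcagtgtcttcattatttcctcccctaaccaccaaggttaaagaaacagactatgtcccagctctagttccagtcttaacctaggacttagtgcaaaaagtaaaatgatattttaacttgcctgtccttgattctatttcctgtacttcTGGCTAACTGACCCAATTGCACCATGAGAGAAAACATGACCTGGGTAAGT
Motif letters were searched on both strands. TATAAA, the TATA box, does not occur in it, while 13.6% of 32544 windows of this length and 41.1% of the 946 windows of Olfr genes hold it. The homeodomain core TAATTA does not occur either, and 5.29% of all windows and 18.4% of those of Olfr genes hold it. The core of early B-cell factor sites, CCCNNGGG, is also missing, and 13.8% of all windows and 3.07% of those of Olfr genes hold it. The E-box letters CANNTG occur once, 13 bases after the start, and 72.3% of all windows hold them. The RefSeq window of Olfr457, at chr6:42472127-42472426, was 65.9% identical over 267 aligned bases, under the 94.8% of the transcripts. That window lies inside Olfr457 as the gene table lists it, at chr6:42468015-42476335, so it need not hold the promoter of that gene.

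Within its family, Olfr456 took a large share of the signal in 2D and little in 3D. It made up 50.8% and 52.2% of the summed TPM of the 322 Olfr genes that the table lists in 2D, and 1.796% and 2.57% in 3D. The other 321 Olfr genes summed to 45.0 and 46.0 TPM in 2D and 39.5 and 35.3 TPM in 3D. No Olfr gene stood above Olfr456 in a 2D library, and 7 and 4 did in the 3D libraries.

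Of the other Olfr genes, 316 had means under 1 TPM and 5 were tested. Of these 2 fell and 2 rose, beside 27.1% and 23.4% of all tested genes, with a median log2 difference of -0.14. Olfr1033 was the highest, with 22.0 and 20.6 TPM in 2D and 10.5 and 9.99 TPM in 3D, and fell by 0.99 (limma adjusted p = 0.00101). Olfr225 had 1.97 and 2.49 TPM in 2D and 0.0940 and 0.140 TPM in 3D, and fell by 1.53 (limma adjusted p = 0.00208). Olfr12 went the other way, from 5.70 and 6.28 TPM to 8.88 and 9.04 TPM (log2 difference 0.51, limma adjusted p = 0.00971, but 0.0520 without 3D replicate 1 and 0.0560 without 3D replicate 2). Olfr1410 had 1.14 and 0.262 TPM in 2D and 2.10 and 2.17 TPM in 3D (limma adjusted p = 0.0462), and its call was lost when 2D replicate 2 or either 3D library was left out (0.0604 to 0.147), with a pseudocount of 0.1 (0.0763), with no filter (0.0976), with median centring (0.0506) and with a constant prior variance (0.0594). Olfr1372-ps1 had 2.11 and 2.91 TPM in 2D and 2.24 and 2.09 TPM in 3D, with no call (limma adjusted p = 0.486). Olfr225 passed the filter of 1 TPM through its 2D libraries and Olfr1410 through its 3D libraries. Next to Olfr456, the tested receptor gene with the largest ratio was Olfr225, with a 19.1-fold higher mean TPM in 2D.

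**Figure D3:**
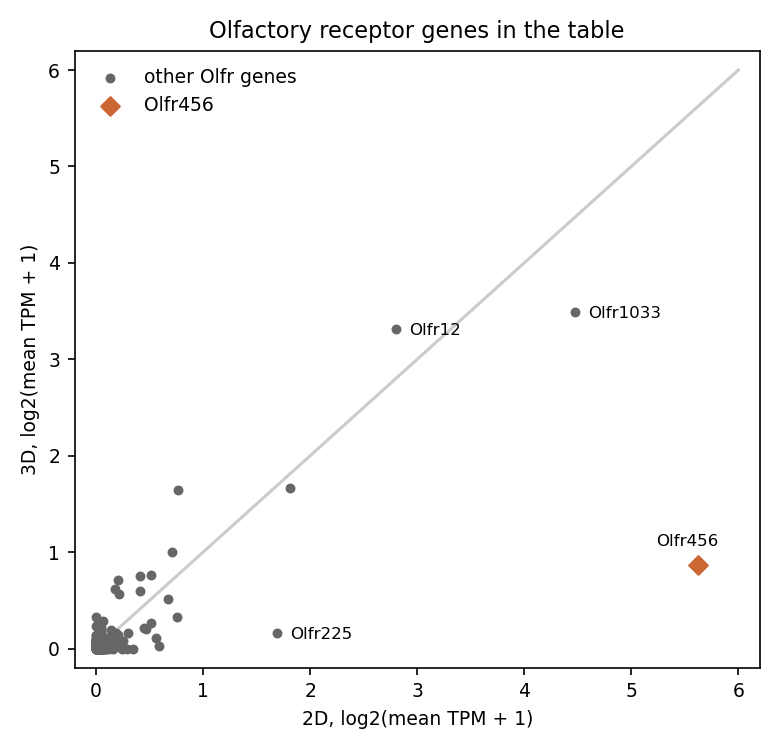
Each point is an Olfr gene, by its level in 2D (x axis) and in 3D (y axis) as log2(mean TPM + 1), with the line of equal levels. Most of the 322 genes sit near 0 in both cultures, and Olfr456 lies at the far right, with 48.3 TPM in 2D and 0.826 TPM in 3D.

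Of 16 listed genes that carry olfactory receptors to the surface or pass on their signal, 15 are in the table and 4 were tested. Of these 1 fell and 1 rose, a share close to the 27.1% and 23.4% of all tested genes (median log2 difference -0.06). Omp, the olfactory marker protein, had 6.67 and 8.10 TPM in 2D and 4.34 and 3.92 TPM in 3D and fell by 0.70 (limma adjusted p = 0.0102, and 0.0525 without 3D replicate 2). Arrb2, a beta-arrestin that ends receptor signalling, rose from 15.5 and 16.3 TPM to 42.4 and 39.7 TPM (log2 difference 1.31, limma adjusted p = 0.00047). Gnb1, a G protein beta subunit, had 105 and 117 TPM in 2D and 119 and 116 TPM in 3D, with no call.

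Of 12 regulators of olfactory receptor genes 7 were tested, of which 0 fell and 2 rose, beside 27.1% and 23.4% of all tested genes. Ldb1, which joins distant enhancers, had 123 and 135 TPM in 2D and 186 and 188 TPM in 3D (log2 difference 0.53, limma adjusted p = 0.00259). Ehmt2, a histone H3 lysine methyltransferase that marks repressed chromatin, rose from 62.3 and 62.8 TPM to 119 and 133 TPM (log2 difference 1.00, limma adjusted p = 0.000772). Kdm1a, a histone demethylase, had 38.1 and 39.4 TPM in 2D and 42.5 and 43.8 TPM in 3D, without a call (limma adjusted p = 0.0740, but 0.0498 with median centring). Of 7 markers of olfactory sensory neurons in the table, 5 were under 1 TPM in every library, and the list summed to 8.63 and 9.87 TPM in 2D and 5.85 and 5.07 TPM in 3D, mostly from Omp.

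Of 16 listed constant genes of the other antigen receptors, 11 are in the table and 3 were tested. The 3 tested genes fell, with a median log2 difference of -0.79, beside 27.1% of all tested genes that fell and a median of -0.04. The 8 others were under 1 TPM in every library, and some of these had more in 3D, such as Trbc1, with 0 and 0.511 TPM in 2D and 0.458 and 0.921 TPM in 3D. Trac, the T cell receptor alpha constant gene, had 9.42 and 10.3 TPM in 2D and 4.40 and 4.82 TPM in 3D, and fell by 0.95 (limma adjusted p = 0.00218). Ighe, the immunoglobulin epsilon heavy chain, had 5.06 and 4.84 TPM in 2D and 2.25 and 2.67 TPM in 3D, and fell by 0.79 (limma adjusted p = 0.00574). Trdc, the partner delta constant gene, had 2.63 and 3.10 TPM in 2D and 1.53 and 1.43 TPM in 3D, and fell by 0.64 (limma adjusted p = 0.0141). Its call was lost when 2D replicate 2 or either 3D library was left out (limma adjusted p from 0.0549 to 0.0655).

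Genes that T cells use with the receptor were mostly close to 0. Of 19 genes 4 were tested, of which 2 fell and 1 rose, beside 27.1% and 23.4% of all tested genes. Cd3e passed the filter of 1 TPM through its 2D libraries and Cd247 through its 3D libraries, so these counts give no support for a direction. Dntt, the polymerase that adds bases at receptor gene joints, had 87.3 and 79.5 TPM in 2D and 48.1 and 48.6 TPM in 3D, and fell by 0.77 (limma adjusted p = 0.00119). Cd3e, a chain of the receptor complex, fell from 2.00 and 1.72 TPM to 0.496 and 0.490 TPM (log2 difference -0.94, limma adjusted p = 0.00555). Cd247, the zeta chain of the same complex, rose from 1.01 and 0.739 TPM to 6.56 and 6.43 TPM (log2 difference 2.00, limma adjusted p = 0.000668). Zap70, a kinase that binds the zeta chain, had 1.36 and 1.64 TPM in 2D and 2.42 and 1.68 TPM in 3D, with no call (limma adjusted p = 0.233).

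Of the 10 T cell markers, 8 were under 1 TPM in every library, among them Cd4, Cd8a, Lck and Ptprc. None was at 0 in every library, but neither was any of the 321 other Olfr genes, so the table may leave out such genes. The list summed to 3.77 and 3.66 TPM in 2D and to 9.42 and 8.58 TPM in 3D. Of 7 markers of other leukocytes 2 were tested, Cd68 and Lyz2, and neither passed, although the limma adjusted p of Cd68 was 0.0367 without 3D replicate 2. The higher sum in 3D came from Cd247, while Cd3e fell, as given above. Of 10 hepatocyte markers 8 were tested, of which 3 fell and 5 rose, beside 27.1% and 23.4% of all tested genes. Krt18, a keratin of simple epithelia, had 6286 and 6128 TPM in 2D and 3275 and 3320 TPM in 3D, and Hnf4a, a hepatocyte transcription factor, had 56.7 and 57.6 TPM in 2D and 164 and 156 TPM in 3D. Other hepatocyte markers were low in 2D. Alb, the gene for albumin, had 0.819 and 1.20 TPM in 2D and 12.7 and 10.0 TPM in 3D, and Ttr, the gene for transthyretin, had 3.98 and 3.11 TPM in 2D and 88.1 and 80.9 TPM in 3D. Cps1, of the urea cycle, was under 1 TPM in every library, and Serpina1a was listed at 0 in both 2D libraries and at 0.0768 and 0.0590 TPM in 3D. The hepatocyte label was thus met by part of its markers.

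Factors known to act on the Tcrg locus in T cells included the interleukin 7 receptor pathway, STAT5 and the Runx and E proteins. Of 20 listed 16 were tested, of which 1 fell and 7 rose, beside 27.1% and 23.4% of all tested genes, with a median log2 difference of 0.17. The 4 not tested were under 1 TPM in every library. They include Il7r, the interleukin 7 receptor gene itself, with 0.0866 and 0.0483 TPM in 2D and 0.0419 and 0.141 TPM in 3D. Runx1, a transcription factor of blood development, was the one that fell, from 65.4 and 65.6 TPM in 2D to 15.3 and 34.3 TPM in 3D (log2 difference -1.47, SE 0.37, limma adjusted p = 0.0287). The 3D libraries of Runx1 differ by more than 2 times, and the call was lost without 2D replicate 1 (adjusted p = 0.208), without 2D replicate 2 (adjusted p = 0.209), with no filter on low genes (adjusted p = 0.0680) and with the replicate block (adjusted p = 0.0683).

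Id2, an inhibitor of E proteins, rose from 102 and 98.4 TPM to 200 and 205 TPM (log2 difference 1.01, limma adjusted p = 0.000323). Jak1, a kinase of cytokine receptors, rose by a smaller amount, from 61.4 and 63.2 TPM to 77.0 and 74.5 TPM (limma adjusted p = 0.00943, and 0.0630 without 3D replicate 1). Cbfb, Id3 and Tcf12 were each within a range of 54.3 to 92.99 TPM over all libraries, with no call, although the limma adjusted p of Tcf12 was 0.0400 without 2D replicate 1.

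**Figure D4:**
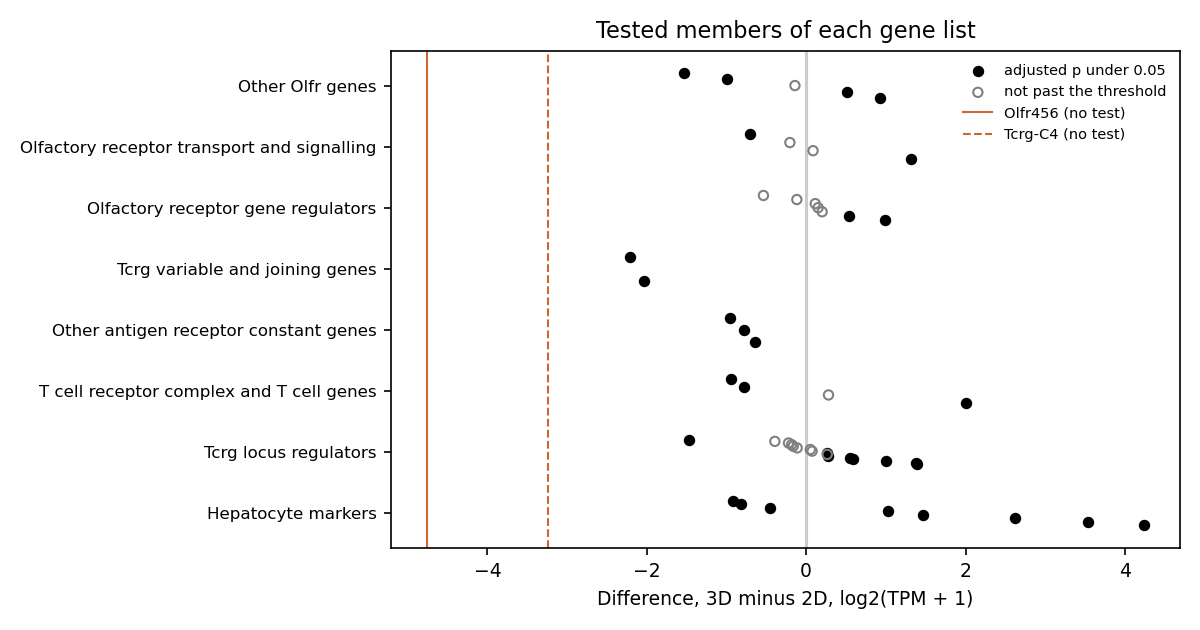
Log2 difference, 3D minus 2D, on log2(TPM + 1), of each tested member of 8 gene lists; filled points had a limma adjusted p under 0.05 over all tested genes and open points did not. The vertical lines mark Olfr456 at -4.76 and Tcrg-C4 at -3.24, and the 2 tested Tcrg variable and joining genes, at -2.21 and -2.03, lie closest to them on the lower side.

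Genes with the most similar levels over the 4 libraries were found by the root mean square difference of log2(TPM + 1), with levels not centred. For Olfr456 these were Mir8114 (0.57), Gm45458 (0.71), Prss27 (0.77), Gm6133 (0.83) and E330013P04Rik (0.94). Prss27, a membrane-anchored serine protease, had 32.3 and 38.3 TPM in 2D and 2.59 and 2.63 TPM in 3D. For Tcrg-C4 they were Sdcbp2 (0.35), 1700016G22Rik (0.39), Wnt7a (0.48), Pxmp2 (0.56) and Ankk1 (0.62). Sdcbp2, which encodes syntenin-2, and Wnt7a, a secreted signalling protein, lie on other chromosomes than Tcrg-C4, and so do Pxmp2 and Ankk1, whereas 1700016G22Rik lies on the same chromosome, outside the window.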

How the data were processed

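RNA-seq libraries were made from AML12 RNA with a stranded mRNA kit. The submitters' processing notes and methods name cutadapt 1.8.3, Trimmomatic 0.36, HISAT2 2.0.5, StringTie 1.3.4 and DESeq2, with GRCm38 and an Ensembl annotation. The authors deposited TPM of each gene in each library. The authors' log2 fold change and p-value columns were deposited too and were not used. Because TPM are shares of a library, a gain in some genes lowers the rest. An exact 0 can be a failed estimate.

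The labels gave each library's culture. The test was run on genes with a mean of at least 1 TPM, on log2(TPM + 1) in R 4.3.3 with limma 3.58.1 (lmFit, then eBayes, trend and robust on). Culture was the sole term, p-values were two-sided, and Benjamini-Hochberg adjustment ran over all tested genes at a threshold of 0.05. The scripts were tested on simulated data. With 2 libraries per culture, exact permutation cannot reach 0.05 and was not run. Neighbours were genes within 200 kb. Positions, exons and transcripts were taken from GENCODE M21, whose positions match the table for the 4 genes, and compared with blastn 2.17.0. Tables and figures were made with Python 3.11.15 and matplotlib 3.10.9.

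The members, lists and motifs were chosen with earlier results of these data known. Genes named were the members, window genes with a mean of at least 1 TPM, and the 5 nearest profiles of Olfr456 and of Tcrg-C4. Of each list, genes were named from among up to 6 tested members with the highest mean TPM. Some of those are given no values here, such as Atf5, Krt8, Trf and Ric8b. Olfr457, Olfr458, Trbc1, Alb, Il7r and markers given as near 0 were named after their values were seen. Alternatives were pseudocounts of 0.1 and 5, no filter, a mean of at least 5 TPM, median centring, quantile normalization, a replicate block, a constant prior variance, windows of 100 and 500 kb, and each library left out in turn.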

Additional observations from a re-analysis of the deposited data

How the results depend on the processing

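Olfr456 and Tcrg-C4 kept their direction under every alternative run. With pseudocounts of 0.1 and 5 the log2 difference was -5.716 and -3.193 for Olfr456 and -3.383 and -2.770 for Tcrg-C4. The median over all genes of the table near Olfr456, tested or not, was -0.3443 and -0.009304 with those pseudocounts, and the same near Tcrg-C4 was -0.6696 and -0.0219. With each library left out in turn these medians ran from -0.07244 to -0.04913 and from -0.2054 to -0.06163. Of the genes near Olfr456, 0 passed in the window of 100 kb, which holds neither Zyx nor Tcaf1, and 1 to 2 passed with each library left out. Near Tcrg-C4, 6 passed in the window of 500 kb. Over all genes, 2571 to 3243 were lower and 2129 to 2957 higher in 3D with each library left out. The same-numbered libraries did not deviate together (correlation -0.0549 over 14116 genes), so the numbers were not taken as pairs. With the replicate block 3347 genes were lower and 2901 higher. For 41 tested genes of the windows and lists, not all of them named here, there were 482 values. Of these 457 kept their direction and side of the threshold, 19 lost the call, 4 gained it and 2 turned. The 2 that turned had no call, namely Lyz2 at 0.05581 without 3D replicate 1 and Olfr1372-ps1 at 0.02394 without 2D replicate 2, where leaving out the other libraries gave values down to -0.4968 and -0.3048. For Tcrg-V1, Trgj4 and Stard3nl the limma adjusted p stayed under 0.05 in every alternative with all libraries that tested them. Trgj4, with a mean of 4.70 TPM, was not tested under the filter of at least 5 TPM. There 2 genes near Tcrg-C4 passed. TPM give no depth, and 2 libraries per culture limit the precision. The cause of these shifts was not tested, except that a larger pseudocount shrinks differences of low genes by construction.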

Other observations

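Segments of T cell receptor and immunoglobulin genes were pooled by their annotation after the values were seen, so no test is given. The table holds 72 of them, and 9 had a mean of at least 1 TPM, Tcrg-C4 among them. In each of the 9 both 3D libraries lay below both 2D libraries, which is no support for a shared direction, since the pool was made with these values known and some, such as Traj32, passed the filter only through 2D. The 72 segments summed to 199.6 and 194.5 TPM in 2D and 38.9 and 43.6 TPM in 3D, and Tcrg-C4 was the largest part of the 2D sums. Outside the Tcrg locus, the variable gene Trav13-2 stood out, with 35.3 ± 1.66 TPM (SD, n = 2) in 2D and 3.71 ± 0.921 TPM (SD, n = 2) in 3D, a 9.50-fold higher mean in 2D. Trdv4, a delta variable gene, was 2.80-fold higher in 2D, with 29.7 and 10.6 TPM as means, and the joining gene Traj32 was 3.53-fold higher, with 2.95 and 0.836 TPM. Variable and joining features are short, and their TPM depend on how reads at their ends were counted.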
